A study of Mus musculus with 6 samples.

Results

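The interleukin-6 family, as taken here, was a set of 10 genes of the 45777 in the deposited expression matrix, each found by its symbol. It comprised the ligands Il6, Il11, Lif and Osm, the receptor chains Il6ra, Il11ra1, Lifr, Osmr and Il6st, and the feedback inhibitor Socs3. All 10 genes had enough reads to be tested, so no gene of the set was lost to the filter on low counts. RNA-seq was performed on tumors of B16F10, a mouse melanoma cell line, grown in the hind footpad (n = 3) or in the flank skin (n = 3). The comparison asks how transcription differs between tumors of the footpad, which bears weight, and tumors of the flank skin. The labels give the same host for all 6 tumors, Foxn1-/- mice of 8 weeks, whereas the methods of the study name both C57BL/6J and Foxn1-null mice as hosts of grafts without saying which carried these tumors. Foxn1-/- mice form no functional thymus and lack most T cells but retain macrophages, neutrophils and other innate immune cells. The methods of the study speak of isolating the tumor cells but name no way of doing so, and the labels say only that tumors were removed and their RNA extracted. Libraries of both sites held reads of fibroblast and macrophage markers, whose sums are given with the results. The methods describe grafts of these cells at several sites of a mouse at the same time, so a footpad and a flank skin tumor may share a mouse, but the labels tie no tumor to an animal. P-values therefore measure only the spread between these samples.

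Cytokines of the interleukin-6 family signal through the shared receptor chain gp130, which Il6st encodes. IL-6 and IL-11 first bind their own receptor chains, IL-6Rα and IL-11Rα, and then recruit gp130 pairs, whereas LIF joins gp130 to the LIF receptor and oncostatin M joins it mainly to the oncostatin M receptor in the mouse. The assembled receptors activate Janus kinases and the transcription factor STAT3, and STAT3 induces Socs3, whose product binds gp130 and dampens the signal. In skin and in tumors, fibroblasts, macrophages and neutrophils are known sources of these ligands.

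The genes lie on several chromosomes of the mouse assembly GRCm38.p6, with 2 close pairs. Osm (chr11:4236785-4241026) and Lif (chr11:4257568-4272514) are neighbors, 16541 bases apart. Osmr (chr15:6813568-6874968) and Lifr (chr15:7090610-7197489) lie 215641 bases apart. Il6 is at chr5:30013114-30019975, Il11 at chr7:4772373-4782907 and Socs3 at chr11:117966079-117970336. The other receptor genes are Il6ra at chr3:89869324-89913196, Il11ra1 at chr4:41760443-41769473 and Il6st at chr13:112464070-112506860. Il6ra overlaps an annotated antisense gene, Gm42809. The library kit marks strand, but whether the counting used strand is not given in the sources used here.

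The 250 bases before a RefSeq start site (GRCm38.p6) are shown for the 3 ligand genes whose level was lowest in the same footpad tumor and whose start region was at hand, and for Socs3, a known STAT3 target. Each is written from 5′ to 3′ on the strand of its gene. Capitals mark a match to the STAT motif TTCNNNGAA, the AP-1 motif TGANTCA or the NF-kB motif, searched on both strands. The AP-1 and NF-kB motifs were added after expression values had been seen. The windows are chr5:30012864-30013113 on the plus strand for Il6, chr7:4778142-4778391 on the minus strand for Il11, chr11:4257318-4257567 on the plus strand for Lif and chr11:117969367-117969616 on the minus strand for Socs3. The Il11 window precedes the downstream of the 2 starts listed for that gene and lies within an intron of its longer transcripts. The Socs3 window lies inside the annotated span of the gene.
Il6: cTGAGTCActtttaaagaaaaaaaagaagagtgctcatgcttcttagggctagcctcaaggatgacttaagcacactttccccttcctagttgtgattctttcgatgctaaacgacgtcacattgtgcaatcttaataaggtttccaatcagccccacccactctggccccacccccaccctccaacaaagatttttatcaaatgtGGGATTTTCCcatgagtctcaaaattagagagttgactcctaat
Il11: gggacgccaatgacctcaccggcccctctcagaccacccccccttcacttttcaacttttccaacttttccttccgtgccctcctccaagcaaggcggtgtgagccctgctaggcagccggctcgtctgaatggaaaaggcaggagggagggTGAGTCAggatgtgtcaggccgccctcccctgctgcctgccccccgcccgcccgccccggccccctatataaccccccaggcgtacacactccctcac
Lif: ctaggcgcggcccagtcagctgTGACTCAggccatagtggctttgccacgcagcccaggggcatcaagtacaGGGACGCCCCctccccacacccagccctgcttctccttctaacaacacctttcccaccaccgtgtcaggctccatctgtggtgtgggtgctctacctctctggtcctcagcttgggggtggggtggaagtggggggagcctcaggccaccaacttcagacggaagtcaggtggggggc
Socs3: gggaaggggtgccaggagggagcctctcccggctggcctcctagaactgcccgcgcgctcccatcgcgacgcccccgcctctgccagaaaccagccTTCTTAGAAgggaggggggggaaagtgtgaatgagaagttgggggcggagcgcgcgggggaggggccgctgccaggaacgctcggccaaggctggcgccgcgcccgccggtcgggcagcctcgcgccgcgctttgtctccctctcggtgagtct

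Start regions were at hand for 9 of the 10 genes, in 12 windows of 250 bases before to 50 bases after a start, and Osm had none. The STAT motif was matched only at Socs3, as TTCTTAGAA beginning at position -154 relative to the start. An AP-1 match was found at Il6 (TGAGTCA, near the upstream end of the window), at Il11 (TGAGTCA, position -98), at Lif (TGACTCA, position -228) and at Osmr (TGATTCA, position 3). Il6 and Lif also held an NF-kB match, GGGATTTTCC at position -44 and GGGACGCCCC at position -178. The windows of Il6ra, Il11ra1, Il6st and Lifr, and the window of the upstream Il11 start, held no match to any of the 3 motifs. Among all 32851 windows of the same length, 8.3% held the STAT motif, 7.81% the AP-1 motif and 8.46% the NF-kB motif. A match is a description of these letters and does not show that a factor binds there.

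Depth was between 46529649 and 66364366 reads on genes per tumor, and 3 reads, taken as the limit of detection, corresponded to between 0.0438 and 0.0673 CPM (a counts-per-million value, scaled by the TMM method). Of 17210 genes tested, 497 were called higher in the footpad and 150 lower with edgeR (quasi-likelihood), where a call needs both a Benjamini-Hochberg adjusted p under 0.05 and a difference of at least 2-fold. Markers of the melanocyte lineage, which define B16F10 cells, summed to 9802 to 17943 CPM in footpad tumors and 14350 to 24942 CPM in flank skin tumors, with 0 of 7 called. Markers of T cells summed to at most 0.204 CPM, Cd3d and Cd3g had no read in any tumor, and none of the 7 had enough reads to be tested. Of 10 fibroblast markers, 8 were called higher, with sums of 2765 to 3772 CPM in footpad tumors against 95.9 to 433 CPM in flank skin tumors. In bulk tumors, fewer cells of a type and less RNA per cell cannot be told apart.

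Of the family, Osmr alone was called higher in footpad tumors and none was called lower. That is 1 of 10 genes, beside 2.89% of all genes called higher and 0.872% called lower. The point estimate was above 0 for 9 of 10 genes, the exception being Il11ra1, and the median log2 fold change of the 10 was 1.40, beside a median of -0.00 over all genes tested. In CPM, every footpad tumor was above every flank skin tumor for 6 of the 10, namely Osm, Lif, Il6ra, Osmr, Il6st and Socs3. Of all genes tested, 17.5% showed this order. An unadjusted p under 0.05 by edgeR was reached by 7 of the 10, all higher in the footpad, beside 14.8% of all genes tested that reached it in that direction. With DESeq2, the calls were 4 (Osm, Lif, Il6ra and Osmr), beside 6.71% of all genes called higher by that tool. The plot of CPM by gene shows all 60 values, and the plot of fold changes sets the estimates beside their errors.

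**Figure D1:**
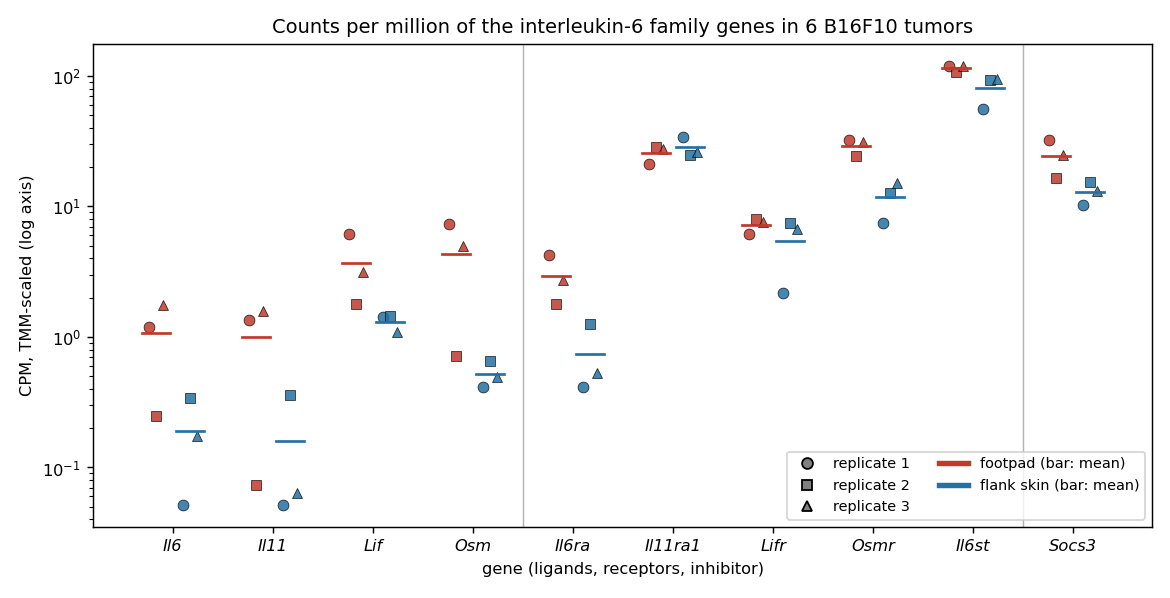
CPM (TMM-scaled, log axis) of the 10 interleukin-6 family genes, with each of the 3 footpad tumors in red and each of the 3 flank skin tumors in blue, the shape giving the replicate number and the bar the mean of a site. Vertical lines part ligands, receptor chains and the inhibitor Socs3. The squares of footpad tumor 2 lie lowest of the footpad tumors for all 4 ligands, and the sites do not overlap for Osm, Lif, Il6ra, Osmr, Il6st and Socs3.

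Among the ligands, Osm encodes oncostatin M, a product of macrophages and neutrophils. Its level was 7.34, 0.715 and 4.98 CPM in footpad tumors 1, 2 and 3 and 0.414, 0.650 and 0.495 CPM in flank skin tumors 1, 2 and 3. The sites did not overlap, but footpad tumor 2 lay just above the highest flank skin tumor, and the other two footpad tumors stood apart from all the rest. Footpad tumors averaged 4.35 ± 3.36 CPM (SD, n = 3) and flank skin tumors 0.520 ± 0.120 CPM (SD, n = 3). The log2 fold change was 3.06 (SE 0.77), the highest of the family, and it missed the threshold with an adjusted p of 0.0636 by edgeR. The adjusted p was between 0.000416 and 0.200 over the alternatives, with the lowest from DESeq2. Without footpad tumor 2 it was 0.0149 by edgeR.

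Lif encodes leukemia inhibitory factor. Its level was 6.15, 1.78 and 3.12 CPM in the footpad tumors and 1.41, 1.44 and 1.09 CPM in the flank skin tumors. The flank skin tumors lay close together, and all footpad tumors were above them, with footpad tumor 2 again the nearest. The mean was 3.68 ± 2.24 CPM (SD, n = 3) against 1.31 ± 0.196 CPM (SD, n = 3). For Lif the log2 fold change of 1.49 (SE 0.47) had an adjusted p of 0.107 by edgeR, with a range of 0.0254 to 0.304 over the alternatives. Leaving out footpad tumor 1, the highest, lowered it to 0.90, and leaving out footpad tumor 2 gave an adjusted p of 0.0480 by edgeR.

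Il6 encodes interleukin-6, an inducible cytokine of fibroblasts and immune cells. It was read 53, 17 and 86 times in the footpad tumors and 3, 20 and 11 times in the flank skin tumors. These counts equal 1.19, 0.248 and 1.76 CPM in the footpad and 0.0517, 0.342 and 0.176 CPM in the flank skin, so that footpad tumor 2 fell inside the flank skin range and flank skin tumor 1 was at the limit of detection. The log2 fold change was 2.47 (SE 0.87), with an adjusted p of 0.135 by edgeR and between 0.0536 and 0.359 over the alternatives. The means were 1.06 ± 0.762 CPM (SD, n = 3) and 0.190 ± 0.146 CPM (SD, n = 3), and the unadjusted p of 0.0237 by edgeR did not hold after adjustment over all genes tested.

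Il11, which encodes interleukin-11, a cytokine of stromal cells, had the lowest mean CPM and FPKM of the family, although by scaled counts per kilobase of exon Il6ra and Il6 were lower. It was read 60, 5 and 78 times in the footpad tumors and 3, 21 and 4 times in the flank skin tumors. In CPM these were 1.35, 0.0729 and 1.59 against 0.0517, 0.359 and 0.0639. Footpad tumor 2 was close to the limit of detection and below flank skin tumor 2, so the sites overlapped. The log2 fold change of 2.64 had the widest error of the family (SE 1.15; adjusted p = 0.203 by edgeR), and it ranged between 2.14 and 4.05 when any of the tumors was left out, the upper end being without flank skin tumor 2. Counts this low make the estimate imprecise.

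The 4 ligands shared part of their order among tumors. Footpad tumor 2 was the lowest of the footpad tumors in 4 of 4, and flank skin tumor 2 was the highest of the flank skin tumors in 4 of 4. Il6ra and Socs3 also had footpad tumor 2 lowest of the footpad and flank skin tumor 2 highest of the flank skin. Within the footpad, the highest tumor exceeded the lowest 21.8-fold for Il11, 10.3-fold for Osm, 7.08-fold for Il6 and 3.46-fold for Lif. For the other genes the excess was 2.40-fold for Il6ra, 1.99-fold for Socs3, 1.36-fold for Il11ra1, 1.35-fold for Osmr, 1.31-fold for Lifr and 1.11-fold for Il6st. By FPKM, which allows levels of different genes to be added, the 4 ligands summed to 5.74, 0.976 and 5.17 in the footpad tumors and to 0.457, 1.12 and 0.584 in the flank skin tumors. On this sum footpad tumor 2 lay below flank skin tumor 2, and the sites overlapped. Osm gave the largest share of any ligand in footpad tumors 1 and 3, with 54.9% and 45.9% of the sum, and in flank skin tumor 3, with 38.4%. In footpad tumor 2 its share was 35.7%, and in flank skin tumors 1 and 2 it was 38.1% and 28.7%.

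Of the marker lists, the neutrophil and endothelial sums shared this part of the order. Endothelial markers summed to 310, 293 and 296 CPM in the footpad tumors and 154, 196 and 165 CPM in the flank skin tumors, with little spread of the sum within the footpad. Vwf, the highest of these markers, was at 132, 172 and 106 CPM in footpad tumors 1, 2 and 3. Of the 7 markers, 5 were lowest of the footpad in footpad tumor 2, among them Pecam1 (67.5, 40.1 and 68.8 CPM) and Cdh5 (49.3, 22.2 and 47.2 CPM). Summed markers of neutrophils, cells that make oncostatin M, were 367, 6.87 and 178 CPM in the footpad tumors and 19.5, 30.4 and 4.76 CPM in the flank skin tumors. Footpad tumor 2 was thus the lowest of the footpad and flank skin tumor 2 the highest of the flank skin, as for the ligands. The rest of the order was shared only in part. All 7 of 7 tested neutrophil markers were highest in footpad tumor 1, as were Osm and Lif, but Il6 and Il11 were highest in footpad tumor 3. In the flank skin, 6 of 7 neutrophil markers were lowest in tumor 3, whereas 3 of 4 ligands were lowest in tumor 1. None of the 7 neutrophil markers passed the test. Ly6g, a defining marker of neutrophils, was at 0.269 CPM or less in every tumor. Macrophage markers did not share the order within the footpad and summed to 232, 254 and 265 CPM in the footpad and to 33.6, 173 and 79.0 CPM in the flank skin, with 1 of 8 called higher. The fibroblast sum was 2765, 2789 and 3772 CPM in footpad tumors 1, 2 and 3, so the sum in footpad tumor 2, low in the ligands, was level with that in footpad tumor 1, although 7 of the 10 markers were lowest of the footpad in it. Footpad tumor 2 also held most of the keratinocyte markers (527 CPM, against at most 25.3 CPM elsewhere) and of the skeletal muscle markers (507 CPM, against at most 58.6 CPM elsewhere), and no gene of these lists passed the test (0 of 6 keratinocyte and 0 of 7 muscle markers tested). The melanocyte lineage sum was 9802, 17943 and 12560 CPM in the footpad tumors and 24942, 14350 and 16420 CPM in the flank skin tumors. It was thus highest of the footpad in footpad tumor 2 and lowest of the flank skin in flank skin tumor 2, opposite to the ligands. The part of any of these cells in the ligand levels was not tested.

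**Figure D2:**
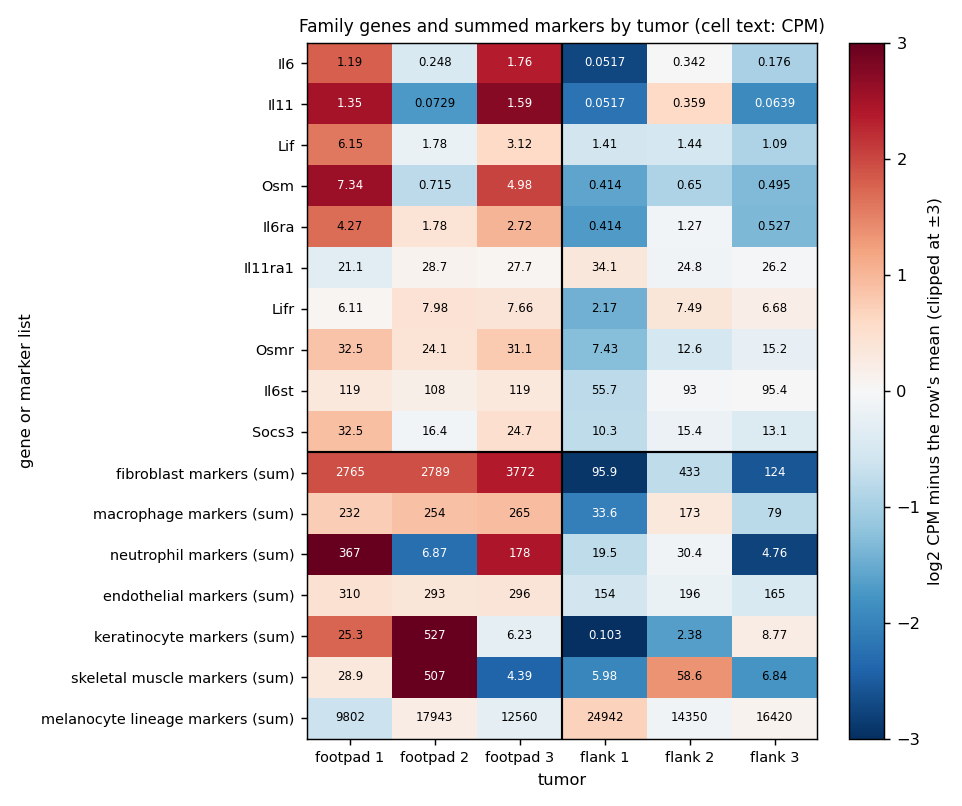
Levels of the 10 family genes (upper rows) and summed markers of 7 cell types (lower rows) in each tumor, footpad to the left of the vertical line and flank skin to the right. Numbers are CPM and color is the log2 CPM minus the mean of its row, clipped at ±3. Ligands and neutrophil markers are red in footpad tumors 1 and 3 and blue or pale in footpad tumor 2, whereas fibroblast markers are red in all 3 footpad tumors.

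Among the receptor chains, Osmr rose in footpad tumors. It encodes the chain that oncostatin M uses with gp130 and is made by fibroblasts, endothelial cells and other stromal and epithelial cells. Its level was 32.5, 24.1 and 31.1 CPM in the footpad tumors and 7.43, 12.6 and 15.2 CPM in the flank skin tumors. The lowest footpad tumor was above the highest flank skin tumor, and the spread within the footpad was small. The mean of 29.2 ± 4.47 CPM (SD, n = 3) in the footpad compared with 11.8 ± 3.97 CPM (SD, n = 3) in flank tumors, a log2 fold change of 1.31 (SE 0.27; adjusted p = 0.0410 by edgeR). The fold change stayed between 1.07 and 1.54 with any tumor left out, but the call depended on 4 of the 6 tumors. It was kept without footpad tumor 2 (adjusted p = 0.0442 by edgeR) and without flank skin tumor 1 (0.0489), and lost without footpad tumor 1 (0.143), footpad tumor 3 (0.143), flank skin tumor 2 (0.0873) or flank skin tumor 3 (0.0820). Genes called of all tested, 647 with all tumors, numbered 836 and 308 in the fits that kept the call. They numbered 31, 0, 530 and 46 in the fits that lost it, in the order given. The sums of fibroblast, endothelial and macrophage markers did not overlap between the sites either. Of the single markers, 0 of 10 fibroblast, 1 of 7 endothelial and 4 of 8 macrophage markers overlapped between the sites. Lyz2 alone made up 139, 132 and 151 CPM of the macrophage sum in footpad tumors 1, 2 and 3. The endothelial sums were 293 to 310 CPM against 154 to 196 CPM, with 3 of 7 called higher, and the macrophage sums 232 to 265 CPM against 33.6 to 173 CPM. In the footpad the endothelial sum had the order of Osmr, but 5 of its 7 markers were highest in footpad tumor 3. The fibroblast and macrophage sums were lowest in footpad tumor 1, where Osmr was highest. In the flank skin all these sums peaked in flank skin tumor 2 and Osmr in flank skin tumor 3. The part of these cells in the level of Osmr was not tested.

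Il6ra encodes the IL-6-binding chain, which hepatocytes and many leukocytes carry. Its level was 4.27, 1.78 and 2.72 CPM in the footpad tumors and 0.414, 1.27 and 0.527 CPM in the flank skin tumors. All footpad tumors were above all flank skin tumors, with footpad tumor 2 and flank skin tumor 2 the nearest. The means were 2.92 ± 1.26 CPM (SD, n = 3) and 0.736 ± 0.463 CPM (SD, n = 3), and the log2 fold change of 1.98 (SE 0.54) missed the threshold at an adjusted p of 0.0759 by edgeR. DESeq2 called it, at an adjusted p of 0.00645, the lowest of the alternatives, of which the highest was 0.229.

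Il6st, the gene of gp130, was the most abundant of the family. Its level was 119, 108 and 119 CPM in the footpad tumors and 55.7, 93.0 and 95.4 CPM in the flank skin tumors. The footpad tumors lay above the flank skin tumors without overlap, although only flank skin tumor 1 stood well below the rest. Its log2 fold change was 0.50 (SE 0.21) with an adjusted p of 0.193 by edgeR, and it was 0.29 without flank skin tumor 1.

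Lifr encodes the chain that LIF and several related cytokines share. Its level was 6.11, 7.98 and 7.66 CPM in the footpad tumors and 2.17, 7.49 and 6.68 CPM in the flank skin tumors. The sites overlapped, and flank skin tumor 1 alone was low. For Lifr the log2 fold change was 0.41 (SE 0.44; adjusted p = 0.588 by edgeR) with all tumors and 0.03 without flank skin tumor 1.

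Il11ra1, which encodes the IL-11-binding chain, was the only gene of the family with a point estimate below 0. Its level was 21.1, 28.7 and 27.7 CPM in the footpad tumors and 34.1, 24.8 and 26.2 CPM in the flank skin tumors. The ranges overlapped almost wholly, with the lowest value in footpad tumor 1 and the highest in flank skin tumor 1. The log2 fold change was -0.14 (SE 0.19; adjusted p = 0.681 by edgeR), and its sign turned to 0.01 without flank skin tumor 1. The mouse genome holds near-identical copies of this gene, Il11ra2 and Gm13305, which took 5.28% to 6.80% and 5.94% to 7.28% of the reads of the 3 together, so the split among them is uncertain. The sum over the copies, 29.4 ± 4.87 CPM (SD, n = 3) for footpad and 32.8 ± 5.63 CPM (SD, n = 3) for flank skin tumors, also overlapped between the sites.

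Socs3 encodes the inhibitor that STAT3 induces and that feeds back on gp130. The start region of Socs3 shown above carried the STAT motif, which 8.3% of all windows held. Its level was 32.5, 16.4 and 24.7 CPM in the footpad tumors and 10.3, 15.4 and 13.1 CPM in the flank skin tumors. The sites did not overlap in CPM, but footpad tumor 2 and flank skin tumor 2 were nearly level. By FPKM the sites overlapped, with 5.40 in footpad tumor 2 and 5.46 in flank skin tumor 2. The means were 24.5 ± 8.07 CPM (SD, n = 3) and 13.0 ± 2.56 CPM (SD, n = 3), a log2 fold change of 0.92 (SE 0.27) with an adjusted p of 0.0933 by edgeR. The adjusted p was 0.0423 without footpad tumor 2 and ranged between 0.0171 and 0.268 over the alternatives.

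**Figure D3:**
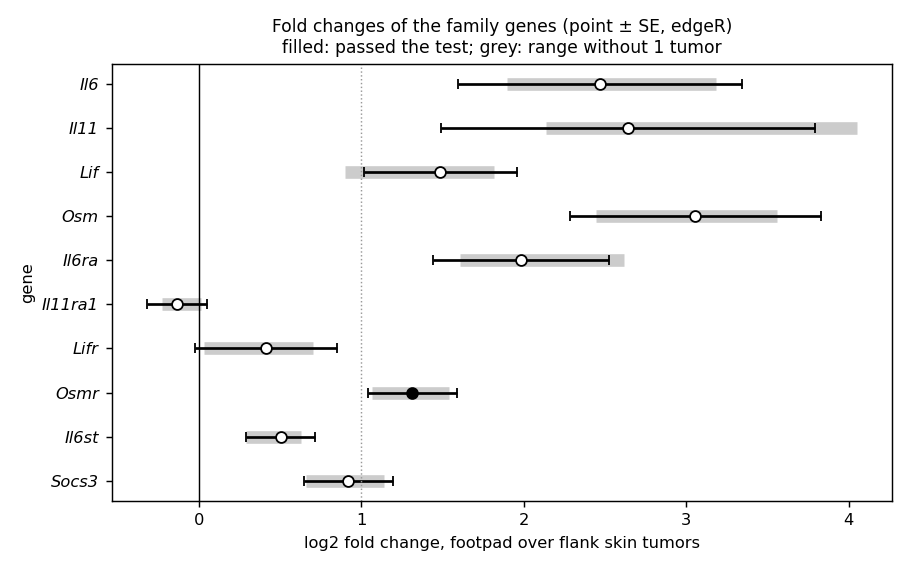
Log2 fold change of each family gene, footpad over flank skin tumors, as a point with its SE from edgeR, with a filled point for a gene that passed the test. Grey bars span the estimates when any of the 6 tumors was left out, the solid line marks no change and the dotted line a fold change of 2. Osmr alone is filled at 1.31, and Il11, Il6 and Osm have the longest error bars.

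Footpad tumor 2 was the lowest footpad tumor for 8 of the 10 genes, flank skin tumor 1 was the lowest flank skin tumor for 8 of the 10, and footpad tumor 1 was the highest of all tumors for 6 of the 10. The shares of all genes tested with these orders were not computed. Without footpad tumor 2 the family had 4 calls, for Osm, Lif, Osmr and Socs3, beside 3.62% of all genes called higher in that fit. Ligands and receptor chains had different sizes of difference, with a median log2 fold change of 2.56 (range 1.49 to 3.06) for the 4 ligands and of 0.50 (range -0.14 to 1.98) for the 5 receptor chains. The difference between the roles was not tested.

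Levels of different genes were compared by FPKM, the authors' values per length of transcript. Over the 6 tumors, the means ran from 16.1 FPKM for Il6st and 13.7 FPKM for Il11ra1 through 6.02 FPKM for Socs3 and 3.71 FPKM for Osmr to 1.10 FPKM for Osm. Below these came Lifr at 0.658 FPKM, Lif at 0.513 FPKM, Il6 at 0.477 FPKM, Il6ra at 0.475 FPKM and Il11 at 0.251 FPKM. Socs3, Il11ra1 and Osmr each exceeded the next gene in 6 of 6 tumors and Il6st exceeded Il11ra1 in 5 of 6. Osm exceeded Lifr in 2 of 6 and Il6 exceeded Il6ra in 1 of 6, so these neighbors cannot be ordered beyond their spread. The shared chain gp130 and the IL-11 receptor were thus read far more often per length than any ligand, in both sites.

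Ratios within a tumor, which do not depend on its depth, are a description of which chain leads. Osmr exceeded Lifr by FPKM in every tumor, 9.70-, 5.34- and 6.95-fold in the footpad and 6.56-, 3.06- and 3.95-fold in the flank skin, and the sites overlapped. The ratio of Il6ra to Il6st was 0.0577, 0.0266 and 0.0368 in the footpad and 0.0117, 0.0219 and 0.00870 in the flank skin. The IL-6-binding chain was therefore scarce beside gp130 in all tumors, and its ratio did not overlap between the sites, the footpad tumors being higher. Osm exceeded Lif in footpad tumors 1 and 3 (2.57- and 3.60-fold) and in flank skin tumor 3 (1.12-fold), and was below it in footpad tumor 2 (0.844) and flank skin tumors 1 and 2 (0.727 and 0.937).

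Of the other cytokines and receptors that use gp130, 7 of 11 were tested, and Il27, Ebi3, Il31ra and Ctf2 had too few reads. Clcf1 and Cntf were called higher and none was called lower, and the median log2 fold change of the 7 was -0.31. Clcf1 encodes cardiotrophin-like cytokine factor 1, a ligand of the CNTF receptor, and its level was 3.19, 2.20 and 2.82 CPM in the footpad tumors and 0.552, 0.633 and 0.336 CPM in the flank skin tumors, without overlap (log2 fold change 2.43, SE 0.38, adjusted p = 0.0219 by edgeR). Cntf encodes ciliary neurotrophic factor, and its level was 3.57, 3.79 and 2.43 CPM against 0.621, 0.855 and 1.04 CPM, again without overlap (log2 fold change 1.96, SE 0.35, adjusted p = 0.0296 by edgeR). Cntf lies within a read-through transcription unit with Zfp91, so its count is uncertain. Both calls of this list were lost without footpad tumor 1, without footpad tumor 3 or without flank skin tumor 3, and Cntf also without flank skin tumor 1 or flank skin tumor 2.

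Of 15 genes of the JAK-STAT signal, 1 was called higher and 1 lower, and their median log2 fold change was 0.15. Socs2, an inhibitor of growth hormone signaling, measured 7.004, 6.37 and 7.39 CPM in footpad tumors and 3.26, 3.25 and 3.12 CPM in flank skin tumors, a small spread within each site (log2 fold change 1.11, SE 0.22, adjusted p = 0.0360 by edgeR). Ptpn6, the phosphatase SHP-1, was at 21.2, 12.4 and 17.4 CPM in the footpad and 40.9, 38.0 and 30.5 CPM in the flank skin (log2 fold change -1.10, SE 0.22, adjusted p = 0.0388 by edgeR), and every footpad tumor was below every flank skin tumor. The Socs2 call was kept only without footpad tumor 2, and the Ptpn6 call was lost when any of the tumors was left out. Pias3, an inhibitor of STAT3, had a log2 fold change of 0.81 (SE 0.25, adjusted p = 0.0995 by edgeR). Stat3 itself was at 238 to 284 CPM in the footpad and 176 to 214 CPM in the flank skin, with a log2 fold change of 0.38 (SE 0.15) that missed the threshold at an adjusted p of 0.159 by edgeR.

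Of 20 genes known to respond to STAT3, 1 was called higher and none lower. Timp1, an inhibitor of matrix metalloproteinases, measured 43.4, 24.8 and 44.0 CPM in footpad tumors and 13.3, 14.3 and 11.1 CPM in the flank skin tumors, without overlap (log2 fold change 1.54, SE 0.25, adjusted p = 0.0234 by edgeR), and its call was kept without footpad tumor 2 or flank skin tumor 2 and lost without any of the other four. Junb, a subunit of AP-1, was at 63.5, 37.1 and 55.5 CPM against 25.6, 26.7 and 26.5 CPM, and it passed the adjusted p (0.0393 by edgeR) at a log2 fold change of 0.99 (SE 0.20), under a fold change of 2. Il4ra, a chain of the interleukin-4 receptor, was at 32.4, 14.0 and 38.5 CPM against 5.12, 12.1 and 4.97 CPM, with a log2 fold change of 1.94 (SE 0.48) and an adjusted p of 0.0605 by edgeR. The median log2 fold change of the 20 genes was 0.76 and 18 of 20 estimates were above 0. Footpad tumor 2 was the lowest footpad tumor for 19 of the 20, the same tumor that was lowest for the 4 ligands. It was also the lowest for 7 of 10 fibroblast and 5 of 7 endothelial markers, but for 2 of 8 macrophage and 1 of 7 melanocyte lineage markers. The share of all genes tested that were lowest in it was not computed, so the 19 of 20 cannot be set against a background. The STAT3-responsive list was drawn up with earlier results of these data known and mixes genes with many other inducers. Its counts are therefore not independent evidence of STAT3 activity.

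**Figure D4:**
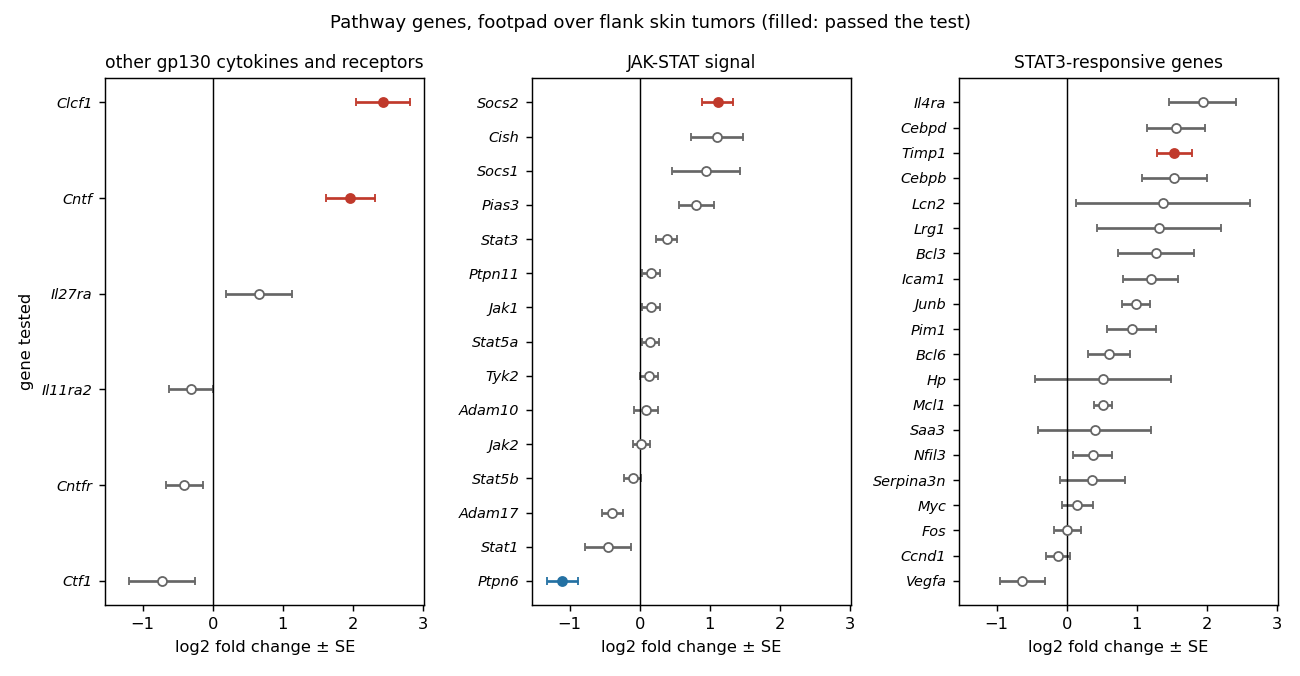
Log2 fold change with SE (edgeR), footpad over flank skin tumors, of the tested genes among other gp130 cytokines and receptors (6 of the 7 genes), the JAK-STAT signal (15 genes) and STAT3-responsive genes (20 genes). Filled points passed the test, red for higher and blue for lower in the footpad. Clcf1, Cntf, Socs2 and Timp1 are filled red and Ptpn6 blue.

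The genes most like a ligand, a receptor and the inhibitor of the family were sought by Pearson's r of log2 CPM over the 6 tumors, which share the contrast between sites and the depth of each library, so r is given as a description. Closest to Il6 among 17209 genes were Sh3gl3, an endophilin (r = 0.996), Rnf40, a ubiquitin ligase (r = 0.992), and Pi15, a secreted peptidase inhibitor (r = 0.992), and 113 genes had an r above 0.95. Closest to Osmr were Gm8515 (r = 0.996), the unconventional myosin Myo10 (r = 0.995) and Rasip1, a Ras-interacting protein of endothelial cells (r = 0.993), among 294 genes above 0.95. Closest to Socs3 were the unconventional myosin Myo9b (r = 0.999), Fcer1g, the signaling chain of Fc receptors on myeloid cells (r = 0.998), and the autophagy regulator Ambra1 (r = 0.998), among 394 genes above 0.95. None of these 9 genes passed the test between the sites.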

How the data were processed

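Total RNA from B16F10 tumors was sequenced, 1 library per tumor, and the site and replicate number were read from the sample labels. The authors prepared stranded libraries, checked reads with FastQC 0.11.7, trimmed them with Trimmomatic and aligned them to mm10 with HISAT2 2.1.0. Deposited raw counts of reads on each gene were used for tests, and the authors' FPKM values, which account for the length of a transcript and for depth, for levels between genes. The counter is not given in the sources used here, so genes with near-identical copies are uncertain. RefSeq (GRCm38.p6) matched 45679 of 45777 gene identifiers and gave coordinates and start regions, and gene overlaps were read from GENCODE.

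Counts of the 6 tumors were fitted with edgeR 4.0.16 under R 4.3.3 (glmQLFit and glmQLFTest, scaled by TMM, filterByExpr defaults leaving 17210 genes), with Benjamini-Hochberg adjustment over all genes tested. A call required an adjusted p under 0.05 and at least a 2-fold difference. The SE of each log2 fold change is its size over the square root of F, an approximation. Replicates differed by more than counting noise, with a common biological coefficient of variation of 0.338. Same-numbered tumors were not treated as pairs, since no label ties a replicate number to a mouse. Their deviations from the site means correlated at 0.0544, -0.0965 and -0.115, which cannot show whether they shared a mouse, with so few tumors per site. Pearson's r was computed on log2 CPM with a prior count of 1. Alternatives were DESeq2 1.42.0, upper-quartile scaling, no filter or at least 10 reads in every tumor, limma 3.58.1 on log2(FPKM + 1) and log2(FPKM + 0.1), the replicate number as a block, other thresholds and leaving out each tumor. The scripts were tested on simulated data. Plots came from matplotlib 3.10.9 under Python 3.11.15.

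The members and lists were chosen with earlier results of these data known. Named genes are the 10 family members, called genes of the 3 pathway lists or, where fewer than 3 were called in a list, the 3 with the smallest p, and the 3 genes most correlated with each of Il6, Osmr and Socs3. Stat3 was added after its values were seen. A gene that the rule names in the list of other gp130 cytokines and receptors is not reported here. Protein sequences were not analyzed here.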

Additional observations from a re-analysis of the deposited data

How the results depend on the processing

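The count of family genes called higher, 1 in the main analysis, was 4 with DESeq2, 2 with at least 10 reads in every tumor, 0 with limma on log2(FPKM + 1), 3 at an adjusted p under 0.1, and between 0 and 4 when a tumor was left out. It was the same with upper-quartile scaling, with no filter on low counts, with limma on log2(FPKM + 0.1) and with no fold limit, and 0 family genes were called lower in any of these analyses. Genes called of all tested, 647 in the main analysis, numbered 1506 with DESeq2, 366 with limma on log2(FPKM + 1), 1327 at an adjusted p under 0.1 and between 0 and 836 when a tumor was left out, with 0 without footpad tumor 3, 31 without footpad tumor 1, 46 without flank skin tumor 3 and 308 without flank skin tumor 1. Pathway genes called higher, 4 in the main analysis, numbered 8 with DESeq2, 2 with limma on log2(FPKM + 1), 7 at an adjusted p under 0.1 and between 0 and 8 when a tumor was left out. Ptpn6, the 1 pathway gene called lower, gave way to 0 (lowest and highest) when any tumor was left out. A fit without a tumor has fewer samples, and beyond that the cause of these shifts was not tested.

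With the replicate number as a block, 0 family genes, 0 genes of all tested and 0 pathway genes in either direction were called, and Osmr had a log2 fold change of 1.36 with an adjusted p of 0.105 by edgeR. Whether same-numbered tumors came from the same mouse is not given in the labels. Their deviations from the site means correlated at 0.0544 at most, which cannot decide it with so few tumors per site.

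Among 128 values of single family genes under the alternatives, 114 kept their direction and their side of the threshold, 7 passed it in addition, 6 lost it and 1 changed sign (Il11ra1, between -0.23 and 0.013 when a tumor was left out, the positive value being without flank skin tumor 1). Il6 and Il11 could not be tested with at least 10 reads in every tumor, since neither had them. By scaled counts per kilobase of exon in place of FPKM, 5 of the 10 genes kept their place in the order of levels, with Il11ra1 falling behind Socs3, and Il11 moving above Il6 and Il6ra, so that Il6ra became the lowest. Fold changes of Il6 and Il11 rest on as few as 3 reads per tumor, so intervals of counting error are wide there.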
